A study of Mus musculus with 4 samples.

Results

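The regions described here are stretches of open chromatin inside gene bodies that were called in both libraries of small-intestinal stem cells and in neither library of large-intestinal stem cells. They were chosen from the peak calls of 4 ATAC-seq libraries, an assay in which the transposase Tn5 inserts adapters where DNA is accessible. Merging every set of peaks with an overlap of 1 bp or more across the 4 lists gave 119965 regions. Of these, 54717 had their midpoint inside a protein-coding gene of chromosomes 1 to 19 and lay more than 1 kb from every protein-coding gene end. Among those gene-body regions 4608 (8.42%) were called in the 2 small-intestinal libraries only and are termed SISC-only. They made up 4608 of all 9555 SISC-only regions. The mirror-image class, called in the 2 large-intestinal libraries only (LISC-only), held 6215 gene-body regions (11.4%), and 23231 gene-body regions were called in all 4 libraries.

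All cells came from untreated mice aged 6 to 12 weeks that carry the Lgr5-EGFP-IRES-creERT2 allele, in which EGFP is driven from the Lgr5 locus. For the 2 small-intestinal (SISC) libraries, EGFP-positive cells without CD24 were sorted from crypts near the pylorus and near the cecum. For the 2 large-intestinal (LISC) libraries, crypts from cecum to rectum were used and the gate named is EGFP alone. Each library used 50000 cells. Separate animals are not stated for the replicates, so their spread may be partly technical.

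The lists held between 83443 and 93220 peaks and covered 49.9 to 63.3 Mb, and the number of reads behind them is unknown. A region absent from a list was not called there, which does not show it to be closed. A gene end is counted as called in a library when a region called there lay within 1 kb of either end of the gene. Such a call can come from the 3′ end alone and need not be the same region in each library. The gene ends of Lgr5, the R-spondin receptor that marks these stem cells, and of the epithelial genes Epcam, Cdh1 and Vil1 were called in all 4 libraries. The gene ends of Ptprc and Cd3e, which mark leukocytes, and of the endothelial gene Pecam1 were called in none. Other immune genes did have called gene ends: 6 and 5 of 18 in SISC replicates 1 and 2, and 4 in each LISC replicate. Of 23 stromal, endothelial, muscle and glial genes, 12 and 15 had called ends in SISC, and 12 and 9 in LISC. The body of Pecam1 held 12 called regions, 5 of them called in all 4 libraries. The gene ends of Chga, Atoh1 and Trpm5, which mark secretory cells and tuft cells, were called in all 4, while those of the Paneth cell gene Lyz1 and the fibroblast gene Col1a2 were called in 3. Cd24a, the gene behind the small-intestinal gate, had a called gene end in all 4 libraries.

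Intestinal stem cells sit at the base of the crypts and divide under Wnt signals. Along the length of the gut they give rise to epithelia with different tasks: the small intestine digests and absorbs fats, sugars and amino acids, while the large intestine mainly takes up water and salt. Open chromatin away from promoters often marks enhancers, which bind transcription factors such as GATA and HNF proteins and act on promoters at a distance. Many enhancers lie in introns, either of the gene they act on or of a neighbour, so the gene that holds a region is not shown to be its target.

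A few of these regions lay over an annotated start of a transcript inside a longer gene, and for those the sequence can be shown. RefSeq windows of 300 bases, running from 250 bases before to 50 bases after a transcript start, were matched by position. Such a window was overlapped by 72 of the 4608 SISC-only regions (1.56%, exact 95% interval 1.22 to 1.96%), with 46 over starts of protein-coding genes and 28 over starts of long noncoding RNAs. The share was 0.837% (0.625 to 1.10%) for LISC-only regions and 6.39% (6.08 to 6.71%) for regions called in all 4 libraries. The rest of the SISC-only regions lay over no start listed in this table. Intervals here and below count each region as independent, and they hold for these 4 libraries alone.

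The 6 windows below are given 5′ to 3′ on the strand of the transcript (RefSeq, GRCm38.p6, the coordinates of mm10). The first 4 are the protein-coding windows with the strongest peaks among those holding the summits of both SISC libraries, and the last 2 are among the windows that hold a GATA-factor motif. Capitals run from 10 bases before the lower to 10 bases after the higher of the 2 SISC summits, which are the bases of highest signal in each library.
Nrxn3, chr12:89812233-89812532, plus strand: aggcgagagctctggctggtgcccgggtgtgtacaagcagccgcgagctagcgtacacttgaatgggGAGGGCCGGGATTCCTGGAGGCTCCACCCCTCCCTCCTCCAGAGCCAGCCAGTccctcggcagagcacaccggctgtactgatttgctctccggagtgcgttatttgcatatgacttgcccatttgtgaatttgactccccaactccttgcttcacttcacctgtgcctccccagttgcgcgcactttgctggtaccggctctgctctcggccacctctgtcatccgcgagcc
Pid1, chr1:84284596-84284895, minus strand: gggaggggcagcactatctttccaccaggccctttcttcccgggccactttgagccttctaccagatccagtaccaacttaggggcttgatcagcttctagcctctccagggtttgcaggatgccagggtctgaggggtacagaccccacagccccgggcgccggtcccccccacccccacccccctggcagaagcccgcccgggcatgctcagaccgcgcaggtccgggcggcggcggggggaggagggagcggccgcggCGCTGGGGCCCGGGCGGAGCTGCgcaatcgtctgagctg
Rab3il1, chr19:10014797-10015096, plus strand: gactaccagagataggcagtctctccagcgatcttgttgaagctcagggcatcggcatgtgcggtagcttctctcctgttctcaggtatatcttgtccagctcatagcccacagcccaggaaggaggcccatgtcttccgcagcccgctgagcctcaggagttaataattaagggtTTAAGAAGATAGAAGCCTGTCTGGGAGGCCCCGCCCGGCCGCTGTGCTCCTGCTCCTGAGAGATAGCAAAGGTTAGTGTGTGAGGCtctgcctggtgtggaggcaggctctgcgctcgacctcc
Il33, chr19:29945540-29945839, plus strand: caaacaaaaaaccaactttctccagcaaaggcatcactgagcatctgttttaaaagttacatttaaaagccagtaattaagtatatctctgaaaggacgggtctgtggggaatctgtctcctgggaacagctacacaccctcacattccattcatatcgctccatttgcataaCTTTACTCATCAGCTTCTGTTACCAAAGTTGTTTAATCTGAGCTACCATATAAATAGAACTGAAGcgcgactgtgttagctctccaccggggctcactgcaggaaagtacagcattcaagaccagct
Mylk3, chr8:85380992-85381291, minus strand: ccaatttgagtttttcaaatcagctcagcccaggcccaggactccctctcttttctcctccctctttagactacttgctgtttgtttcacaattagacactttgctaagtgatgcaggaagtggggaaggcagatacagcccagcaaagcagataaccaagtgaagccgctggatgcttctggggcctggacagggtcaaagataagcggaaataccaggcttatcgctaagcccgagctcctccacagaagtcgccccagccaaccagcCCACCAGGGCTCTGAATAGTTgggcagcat
A930019D19Rik, chr2:146259036-146259335, plus strand: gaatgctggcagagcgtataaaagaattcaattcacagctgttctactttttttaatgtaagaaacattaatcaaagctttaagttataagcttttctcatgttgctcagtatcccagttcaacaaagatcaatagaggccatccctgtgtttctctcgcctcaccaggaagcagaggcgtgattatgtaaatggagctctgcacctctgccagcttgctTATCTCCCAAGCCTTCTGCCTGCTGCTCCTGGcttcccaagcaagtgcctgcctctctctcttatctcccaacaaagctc

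The Nrxn3 window belongs to the strongest SISC-only region in a gene body. It starts a shorter transcript of Nrxn3, a neuronal adhesion receptor gene, 522 kb from the nearest gene end, and its GC content was 60.7%. The summits of the 2 libraries fell at bases 78 and 110 of the window, counted from its 5′ end. In Pid1, which encodes an adaptor protein with a phosphotyrosine-binding domain, the summits fell at bases 272 and 274, just after the transcript start. The Rab3il1 window carries the HNF1 motif GTTAATNAT from base 161, ahead of summits at bases 187 and 252. Il33 encodes a cytokine of epithelial barriers; its summits fell at bases 228 and 184. Mylk3, a myosin light chain kinase gene, has the GATA motif AGATAAG from base 201, and both summits at base 281. A930019D19Rik is a noncoding RNA inside Ralgapa2, and its window holds the GATA motif on the opposite strand from bases 219 and 281, the first of them reaching into the capitals.

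The letters of 14 motifs were counted on both strands in all windows of this kind, 80 under SISC-only regions and 32851 in the whole table. The GATA motif AGATAAG was present in 6 of the 80 (7.50%), in 0 of 60 windows under LISC-only regions and in 3.04% of all windows. The AP-1 motif TGANTCA was present in 15 of the 80 (18.8%), against 10.0% under LISC-only regions and 7.81% of all windows. The TCF/LEF motif CTTTGAT, bound by the factors that carry Wnt signals, was present in 6 of the 80 (7.50%), against 1.67% and 3.73%. The ETS motif CGGAAGT, common at constitutive promoters, was in 0 of the 80, in 1.67% under LISC-only regions and in 6.42% of all windows. Motifs less frequent than under LISC-only regions included CDX (TTTATNG), at 6.25% against 13.3%, MAF (TGCTGAC), at 5.00% against 13.3%, and the bHLH E-box CAGATGG, at 3.75% against 10.0%. The HNF4 motif CAAAGTCC was in 2.50% of the 80 and in 3.33% under LISC-only regions. These are matches of letters in a small set of windows, some of which overlap each other, and carry no test. The median GC content of the 80 windows was 52.8%, that of all windows 52.7%.

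Regions over a microRNA hairpin were rarer still: 3 of the 4608 SISC-only regions overlapped one. So did 1 of 6215 LISC-only regions and 22 of 23231 regions called in all 4. The region at chr9:108568743-108568991, inside Dalrd3, reached a −log10 q of 12.1 and 20.9 in SISC replicates 1 and 2. Its fold enrichment over local background was low, at 1.74 and 2.01. The medians of the 4608 regions were 4.00 and 3.86. The Dalrd3 region covers the hairpin of Mir425, whose 2 mature arms are shown with the seed, bases 2 to 8, in capitals.
mmu-miR-425-5p: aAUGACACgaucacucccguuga
mmu-miR-425-3p: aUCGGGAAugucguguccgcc

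Most SISC-only gene-body regions were weak peaks of their own lists. Strength was read as −log10 q, the authors' peak-calling value, and as its percentile within the list, since the raw value grows with the depth of a library. In replicate 1 of the SISC the −log10 q of the 4608 regions ran from 2.47 to 308 with a median of 13.9, and in replicate 2 from 2.62 to 246 with a median of 16.6. The median percentile was 24.0 in replicate 1 and 32.0 in replicate 2 (28.0 ± 5.64, SD, n = 2). Regions called in all 4 libraries had median percentiles of 57.4 and 62.3 in the same lists. Of the SISC-only regions 77.7% lay below percentile 50 in both SISC lists, against 28.7% of the regions called in all 4. LISC-only regions were similarly placed in their own lists, with median percentiles of 32.1 and 31.8 in LISC replicates 1 and 2. The plot of peak strength shows both distributions.

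**Figure D1:**
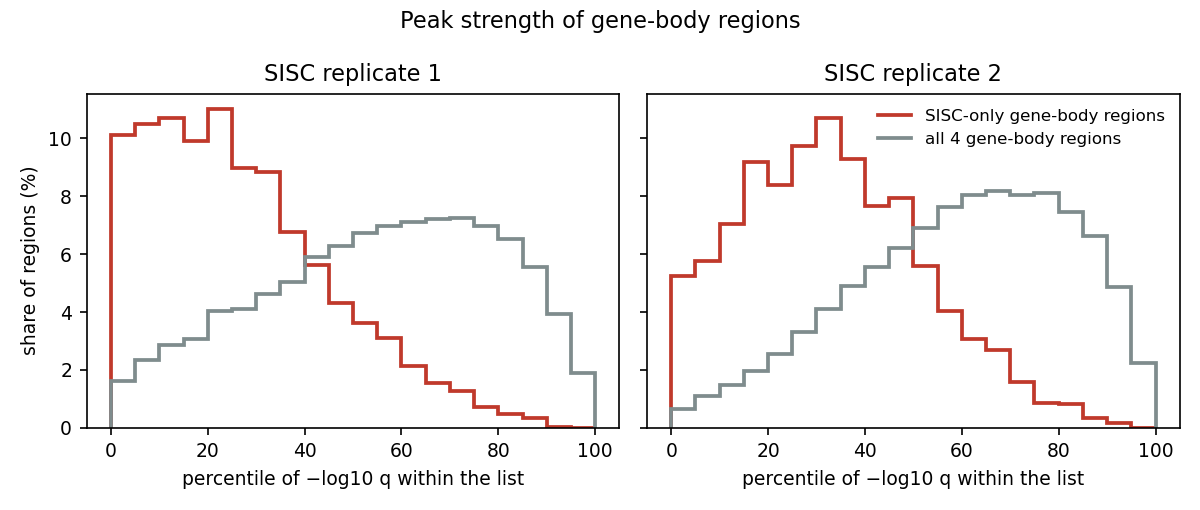
Share of gene-body regions (%) by percentile of −log10 q within each SISC list, in steps of 5 percentiles. The SISC-only regions (red) have medians of 24.0 and 32.0, below the medians of 57.4 and 62.3 of the regions called in all 4 libraries (grey).

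The strength of a region in one SISC library went with that in the other. Across the 4608 regions Pearson's r of the percentiles was 0.719 and Spearman's rho 0.658, a description over regions that share their libraries. The percentile was higher in replicate 1 for 1492 regions. The summits of the 2 libraries lay within 50 bp of each other in 65.2% of the regions (63.8 to 66.6%), with a median gap of 29.0 bp. This share was 77.5% (77.0 to 78.0%) for regions called in all 4, and 62.7% (61.5 to 63.9%) for the 2 LISC summits of LISC-only regions. When both classes were limited to regions below percentile 50 in both SISC lists it was 62.5% (60.9 to 64.1%) for SISC-only and 64.0% (62.8 to 65.1%) for the shared regions, and these intervals overlap. The cut did not make the classes equal in strength. Within it the median percentiles in SISC replicates 1 and 2 were 19.1 and 26.8 for SISC-only, against 27.3 and 34.4 for shared regions. The SISC-only regions were also narrower, with a median merged width of 454 bp against 790 bp for the shared regions, whose width is a union over more peaks, and 476 bp for LISC-only regions.

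The count of SISC-only gene-body regions moved with the calls of single libraries. Without SISC replicate 1 it would be 10140, and without SISC replicate 2 it would be 6505. These counts come from merging the remaining lists anew. In the merge of all 4 lists, 5436 gene-body regions were called in SISC replicate 2 alone and 1462 in SISC replicate 1 alone. A further 2831 gene-body regions were called in both SISC libraries and in 1 LISC library, 1604 of them in LISC replicate 1 and 1227 in LISC replicate 2. When only the 41721 strongest peaks of each list were kept, 2190 regions met the rule, but only 393 of the 4608 regions (8.53%) lay under one of them. Of the 2190, 1796 overlapped a weaker peak of a full LISC list.

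Even so, 54 regions had a −log10 q of at least 100 in both SISC libraries. The Nrxn3 region, chr12:89811604-89812801, was the strongest, with a −log10 q of 308 and 233 and a fold enrichment of 18.3 and 13.7 over local background in replicates 1 and 2. A region inside both Cmss1 and Filip1l, chr16:57471750-57472989, reached 245 and 232. A region in Mbd5, which encodes a methyl-CpG-binding domain protein, at chr2:49049941-49050797, reached 240 and 198 and had the larger enrichment of 24.7-fold and 19.6-fold. The region in Mrc1, a mannose receptor gene typical of macrophages, at chr2:14258234-14258830, reached 186 and 246. Regions in Snx18, Map2k5, Pccb, Exosc10, Tenm3, Acbd6 and Myrf followed, with mean percentiles of 88.0 to 89.2. Myrf encodes a membrane-bound transcription factor, and its region at chr19:10235609-10236583 had a fold enrichment of only 5.96 and 5.39 at a −log10 q of 203 and 187.

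The widest SISC-only regions were not the strongest ones. A region in Dop1b, chr16:93742335-93744680, spanned 2346 bp with a −log10 q of 26.5 and 41.7. The others of the 5 widest lay in Lmtk2 (2226 bp), Lmo3 (2214 bp), Itpr2 (2087 bp) and Slco3a1 (2069 bp). The Slco3a1 region, chr7:74408446-74410514, was both wide and strong, at 91.1 and 131, and its 2 SISC summits lay 1243 bp apart.

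SISC-only regions lay a median of 18.6 kb from the nearest protein-coding gene end. Of the 4608, 756 lay 1 to 5 kb away, 766 at 5 to 10 kb, 1978 at 10 to 50 kb, 615 at 50 to 100 kb and 493 beyond 100 kb. The share beyond 50 kb was 24.0% (22.8 to 25.3%), below the 31.4% (30.2 to 32.6%) of LISC-only regions and above the 19.9% (19.4 to 20.5%) of regions called in all 4. Among regions below percentile 50 in both SISC lists it was 23.8% (22.4 to 25.2%) for SISC-only and 22.3% (21.3 to 23.3%) for regions called in all 4, and these intervals overlap. The most distant lay 1001 kb from any gene end, inside the phosphatase gene Ptprd at chr4:76941765-76942245. At the threshold itself, the nearest regions inside it were in Exoc3l2, Rpusd2 and Mrps36, at 1001, 1002 and 1007 bp. The nearest outside, in Abca6, Ier5 and Snrk, lay at 997, 993 and 993 bp. The Snrk region was among the stronger ones, with a −log10 q of 100 and 40.4.

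Along the host gene the regions were spread over the whole body. Among 3623 pairs of a region and a host gene with a strand in the RefSeq start table, the median position was 45.7% of the way from the 5′ end, and 54.5% lay nearer to that end than to the 3′ end. For LISC-only regions the median was 48.1% and for regions called in all 4 it was 45.5%. The plot of position along the gene shows no stretch with a large excess in any class.

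**Figure D2:**
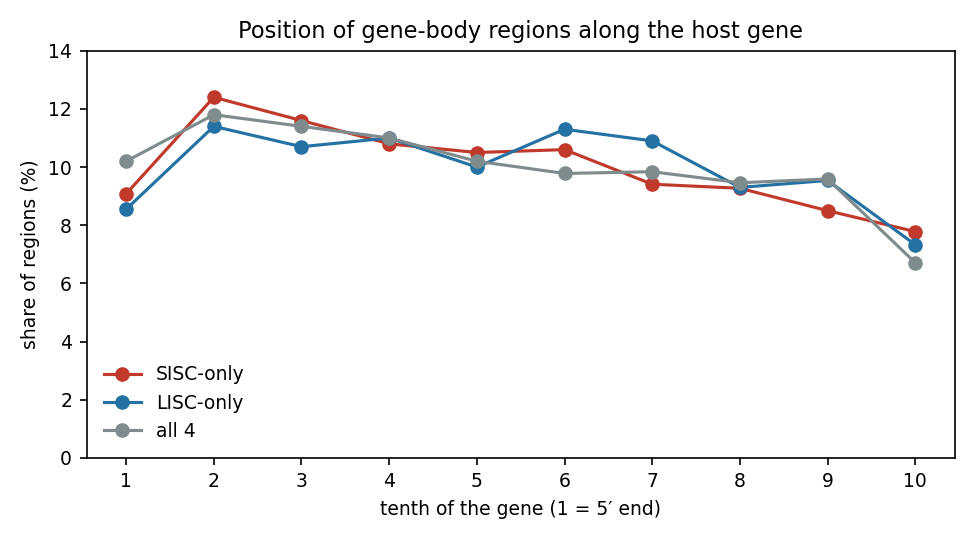
Share of gene-body regions (%) in each of 10 equal stretches of the host gene, numbered from the 5′ end, for SISC-only (red), LISC-only (blue) and regions called in all 4 libraries (grey). The 3 lines stay close together, with the median position at 45.7%, 48.1% and 45.5% of the gene.

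SISC-only regions had neighbours of their own kind more often than the overall share. The nearest other gene-body region in the same gene was SISC-only for 787 of 4417 region and gene pairs with a neighbour (17.8%), while SISC-only regions made up 8.42% of all gene-body regions. For regions called in all 4 the nearest neighbour was SISC-only in 7.65%, and for LISC-only regions in 4.41%. LISC-only neighbours were seen for 6.47% of SISC-only regions and for 25.6% of LISC-only regions. The median gap to the neighbour was 2.91 kb for SISC-only and 2.84 kb for shared regions. A mutual pair counts once for each of its 2 regions, so these shares are a description.

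The 4608 regions lay in 2936 of 20661 protein-coding genes (14.2%). Of these, 1979 genes held a single region, 390 genes (1.89%) held 3 or more and 97 held 5 or more. Without SISC replicate 1 the number with 3 or more would be 1155, without SISC replicate 2 it would be 633, and from the 41721 strongest peaks per list it was 95. Host genes were long: their median length was 70.3 kb, and 213 kb for those with 3 or more, against 17.5 kb for all genes. LISC-only regions lay in 3236 genes with a median length of 79.0 kb. The 1146 genes that held both kinds were 39.0% of the SISC-only hosts and 35.4% of the LISC-only hosts. Among the 390 genes with 3 or more SISC-only regions, 156 held no LISC-only region and 94 held at least as many LISC-only as SISC-only regions.

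**Figure D3:**
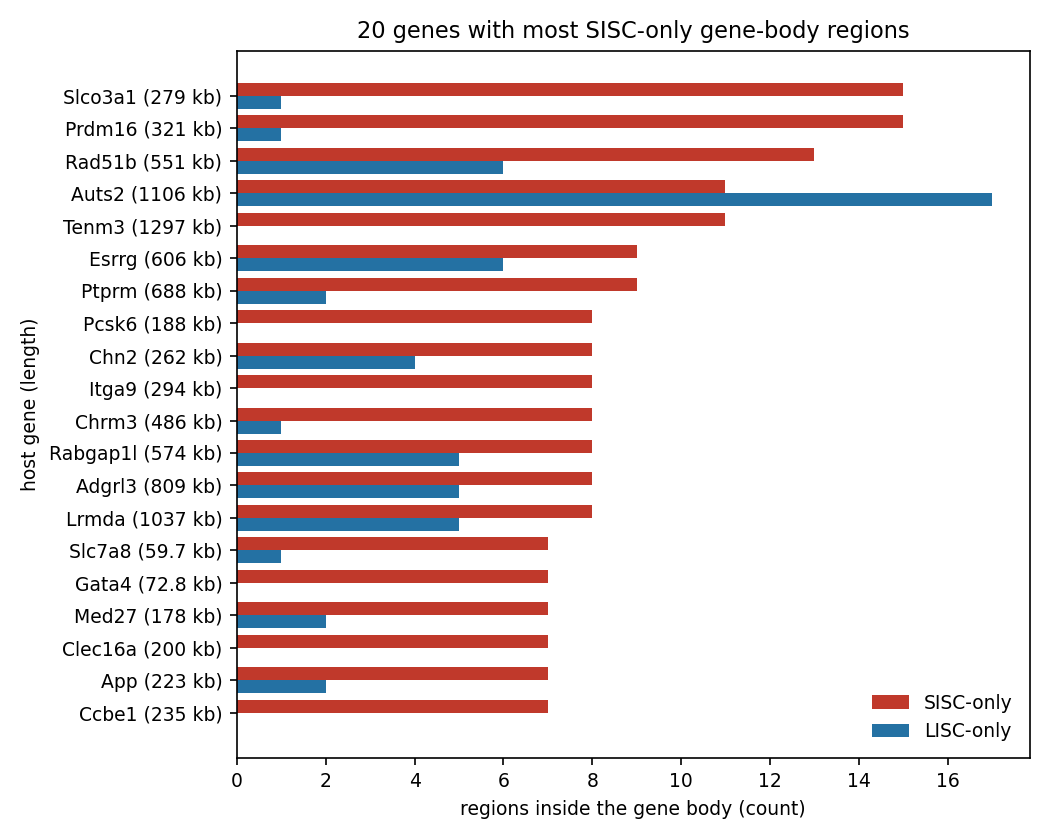
Number of SISC-only (red) and LISC-only (blue) gene-body regions in the 20 genes with most SISC-only regions, with gene length in brackets. Slco3a1 and Prdm16 lead with 15 SISC-only regions and 1 LISC-only region each, while Auts2 holds 11 and 17.

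Slco3a1 and Prdm16 held the most, 15 SISC-only regions each, beside 1 LISC-only region each. Slco3a1 encodes an organic anion transporter and spans 279 kb of chromosome 7 (74275418 to 74554780). Its 15 regions had a −log10 q of 5.69 to 97.5 in replicate 1 and 5.13 to 131 in replicate 2. Prdm16 encodes a zinc-finger regulator known from brown fat and from crypts of the upper small intestine, and spans 321 kb of chromosome 4 (154316122 to 154637360). Its regions ran from 6.08 to 94.7 and from 4.52 to 109, and all lay between 9.64 and 227 kb from its 5′ end. The gene body also held 13 regions called in all 4 libraries. Counted anew from the 41721 strongest peaks of each list, Slco3a1 had 4 SISC-only regions and Prdm16 had 5. These need not be among the 15, and a weaker LISC peak can lie under them. Rad51b, a gene of homologous recombination, held 13 SISC-only regions, 6 LISC-only and 36 called in all 4. The same recount from the strongest peaks gave it 3 SISC-only regions.

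Other leading genes fell into those with few LISC-only regions and those with many. Tenm3 (11 SISC-only regions), which encodes a teneurin adhesion protein, Pcsk6 (8), a proprotein convertase gene, the integrin gene Itga9 (8), Gata4 (7), Clec16a (7) and Ccbe1 (7) held no LISC-only region. Chrm3, a muscarinic acetylcholine receptor gene, held 8 and 1. By contrast Auts2 held 11 SISC-only and 17 LISC-only regions, and Esrrg held 9 and 6. In Foxp1 the counts were 7 and 14, and in Sox6 they were 7 and 11; both encode transcription factors. In all, 21 genes held at least 5 of each kind.

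**Figure D4:**
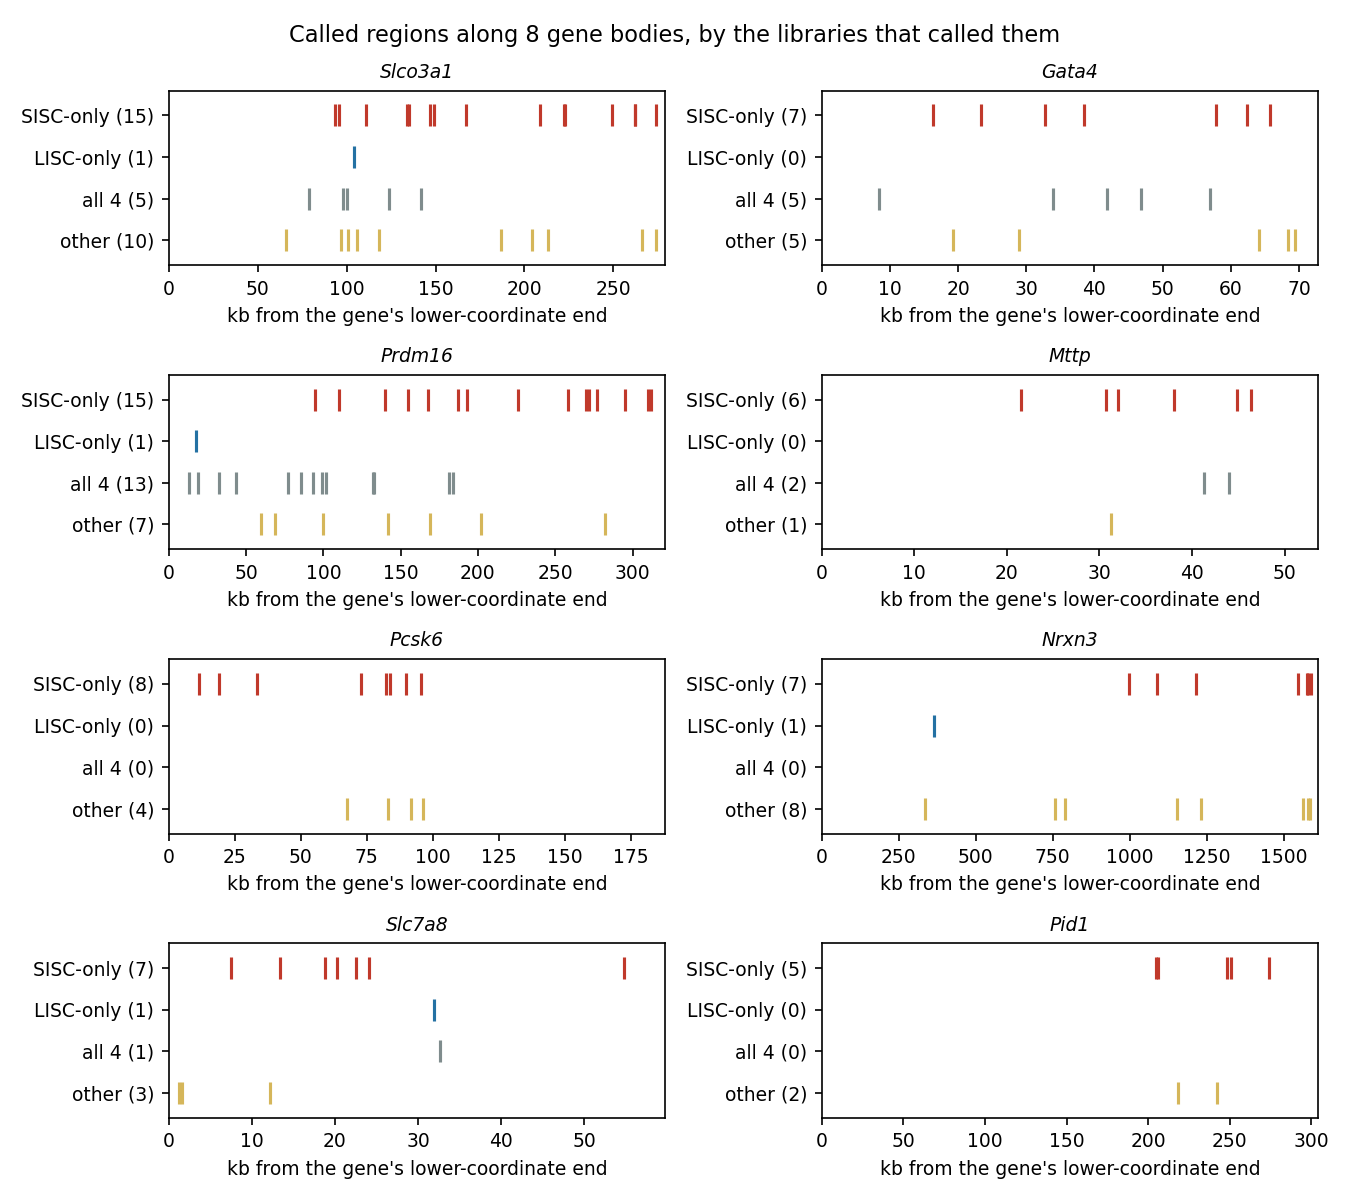
Called gene-body regions along 8 genes, in kb from the lower-coordinate gene end, in rows by the libraries that called them (other: any other combination), with counts in brackets. In Pcsk6, Nrxn3 and Pid1 no gene-body region was called in all 4 libraries, while Gata4 and Prdm16 interleave SISC-only regions with 5 and 13 shared ones.

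The map of 8 genes shows how the regions were arranged. In Pcsk6, on chromosome 7 from 65862136 to 66050386, the 8 SISC-only regions lay between 11.6 and 95.4 kb from the 5′ end. The one at 72.7 kb, chr7:65934316-65935297, was the strongest, with a −log10 q of 161 and 191. None of the 12 regions in the body of Pcsk6 was called in all 4 libraries, although each library had a call at a gene end of Pcsk6. In Tenm3 the 11 regions lay between 621 and 919 kb from the 5′ end, and 2 neighbours at 657 kb had values of 226 and 175, and of 45.9 and 41.0. In Nrxn3 all 7 SISC-only regions lay 997 kb or more from the 5′ end. In Pid1, which was picked for its start window, the region over that start had values of 82.6 and 64.7, and 4 weaker SISC-only regions had values of 7.80 to 38.9 across both libraries.

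Gata4, the transcription factor gene that sets proximal small-intestinal identity, differed from these because its gene end was called in the 2 SISC libraries alone. Its span on chromosome 14 (63198914 to 63271712) held 7 SISC-only regions, no LISC-only region and 5 regions called in all 4. The strongest SISC-only region, chr14:63260877-63261799, had a −log10 q of 148 in replicate 1 and 60.5 in replicate 2, and the other 6 ran from 8.47 to 53.4 across both libraries. The strongest shared region in the gene body reached 204 and 173. So parts of this gene were called in the LISC libraries as well, while its outermost ends were not. A transcript start inside the span counts here as gene body. The calls at the outermost ends therefore do not show that every Gata4 promoter went uncalled in LISC.

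Per length, the densest hosts were short, which dividing small counts by gene length favours. Sema7a, which encodes a membrane semaphorin, held 4 SISC-only regions in 23.3 kb, or 17.2 per 100 kb. The other dense genes with at least 3 regions were Mab21l3 (12.9 per 100 kb), Ahcyl1 (12.0), the arginase gene Arg2 (11.8), Slc7a8 (11.7), Gm35751 (11.6), Mttp (11.2) and the fatty acid hydroxylase gene Cyp4v3 (11). Of these 8 genes only Slc7a8 held a LISC-only region, and it held 1. Slc7a8 encodes an exchanger of neutral amino acids. Its 7 regions had values of 12.2 to 50.3 and 7.09 to 60.5, and 6 of them lay between 35.6 and 52.2 kb from the 5′ end.

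Most host genes had a gene-end call in both tissues. Each of the 4 libraries had a call within 1 kb of either gene end, not necessarily in the same region, for 79.0% of the 2936 hosts (77.5 to 80.4%). The share was 63.8% for all 20661 genes (63.2 to 64.5%) and 81.0% (79.6 to 82.3%) for the LISC-only hosts. In the genes without a SISC-only region the share was 61.3%. The gene end was called in the 2 SISC libraries alone for 65 hosts (2.21%, 1.71 to 2.81%), against 1.40% (1.25 to 1.57%) of all genes, and in the 2 LISC libraries alone for 19 hosts (0.647%), against 0.697% of all genes. No gene end was called in any library for 396 hosts (13.5%), Tenm3 and Nrxn3 among them, against 30.2% of all genes. The RefSeq gene table gives the outermost ends over all transcripts, so a start inside that span, like the one in Nrxn3, counts here as gene body.

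Besides Gata4, the hosts whose gene end was called only in SISC included Olfm4, a secreted glycoprotein gene that marks small-intestinal stem cells. Olfm4 held 2 SISC-only regions and no other region in its body, with values of 18 and 12.9 for chr14:80007807-80008720 and of 12.3 and 22.1 for chr14:80010526-80010787. The cardiac and developmental factor gene Tbx20 held 3, with values of 29.5 to 101 and 26.0 to 81.0. Hhip, an antagonist of Hedgehog ligands, held 2, with values of 31.8 to 32.2 and 21.3 to 27.7. Cps1, which encodes the first enzyme of the urea cycle and is made in small-intestinal epithelium, held 2 SISC-only regions and 3 called in all 4. These genes were named after their values were seen.

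Gene lists for the functions of the 2 tissues were counted by regions per Mb of gene span. Over all protein-coding genes there were 4.69 SISC-only and 6.26 LISC-only regions per Mb, and the share of genes that hosted a SISC-only region was 14.2%. The lists were made with earlier results of these data known, so their direction is a description and carries no test, and genes of a list differ in length and in how open they are.

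**Figure D5:**
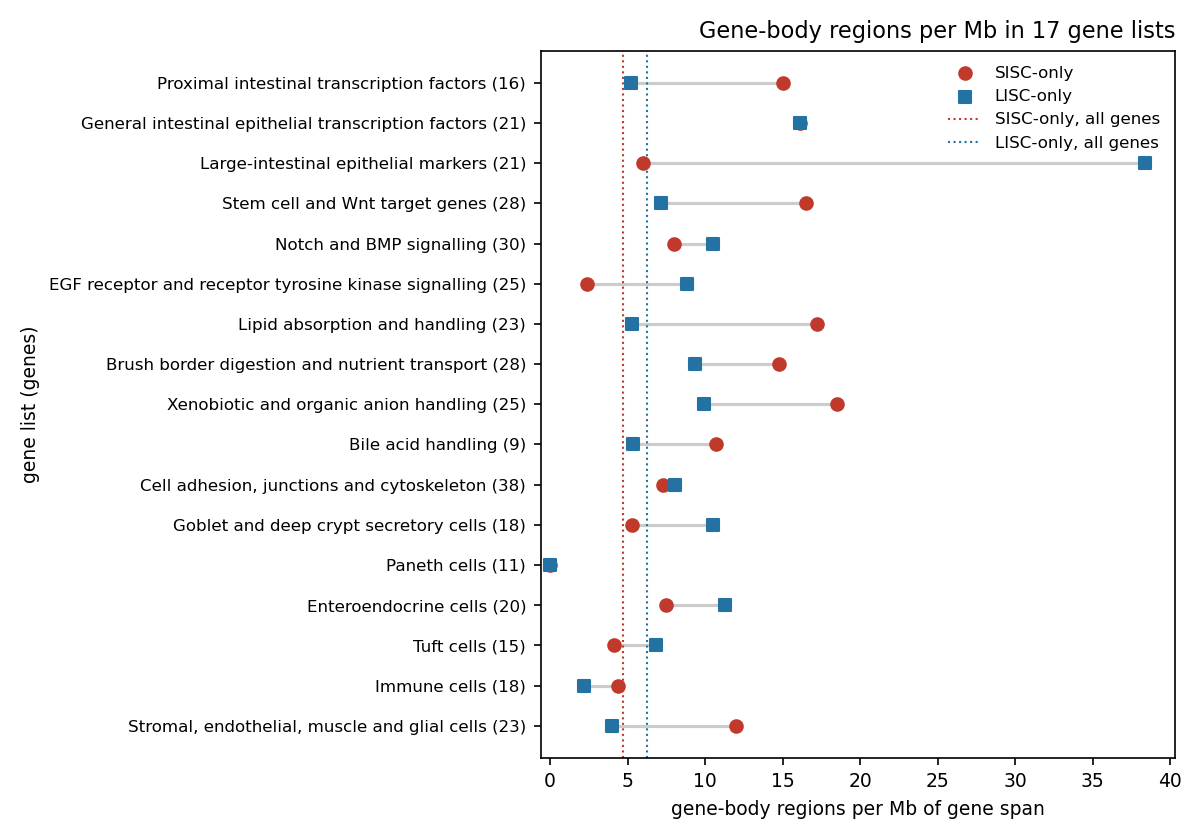
SISC-only (red circles) and LISC-only (blue squares) gene-body regions per Mb of gene span in 17 gene lists, with the number of genes in brackets and dotted lines at the values over all protein-coding genes, 4.69 and 6.26. Lipid genes sit at 17.2 against 5.29 and large-intestinal markers at 5.99 against 38.4.

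Among transcription factors of the proximal intestine, 9 of 16 genes hosted SISC-only regions, with 20 SISC-only and 7 LISC-only regions (15.0 and 5.24 per Mb). Gata4 held 7 of the 20, and without it the list held 13 and 7. Meis2, a homeobox gene, held 4 and no LISC-only region. Single SISC-only regions lay in Gata6, Onecut2, Creb3l3, Nr5a2, Nr1h4 and Hnf4g. Factors shared by both epithelia were even in count: 8 of 21 genes hosted SISC-only regions, with 16 of each kind (16.1 per Mb each). Over all protein-coding genes LISC-only regions were the more numerous. Their SISC-only density was thus no lower than that of the proximal factors. Among them Hnf4a and Grhl2 each held 3 SISC-only and 2 LISC-only regions, and Tcf7l2, which carries Wnt signals, held 2 and 5.

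Stem cell and Wnt target genes held 30 SISC-only and 13 LISC-only regions (16.5 and 7.14 per Mb), in 15 of 28 genes. Nkd1, a feedback inhibitor of Wnt signalling, held 5 and no LISC-only region. Its strongest, chr8:88566087-88566805, had values of 41.2 and 30.7. The reporter gene itself, Lgr5, held 3 weak SISC-only regions, with values of 6.23 to 14 in replicate 1 and 4.58 to 10.2 in replicate 2, beside 5 regions called in all 4. Msi1, an RNA-binding protein gene of stem cells, held 3, and Olfm4, Cdca7, Rnf43 and Prom1 held 2 each, none of them with a LISC-only region. In Znrf3, which like Rnf43 removes Wnt receptors from the membrane, the counts were 2 SISC-only and 3 LISC-only, and Lrig1 held 3 LISC-only regions and no SISC-only one.

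Absorptive genes for lipids and nutrients held more SISC-only than LISC-only regions, a count that leaned on a few genes. Lipid absorption genes held 13 and 4 regions in 6 hosts of 23. Mttp, which loads triglyceride onto lipoproteins, held 6 of the 13 and no LISC-only region, and without it the list held 7 and 4. Its strongest, chr3:138121489-138122319, had values of 56.6 and 49.4, and its weakest 4.59 and 5.95. The fatty acid transporter gene Cd36 held 2, and Apoa4, an apolipoprotein gene of only 2.62 kb, held 1. Brush border and nutrient transport genes held 19 and 12 regions (14.8 and 9.37 per Mb) in 12 hosts of 28. Mme, which encodes the peptidase neprilysin, held 6 of the 19 and no LISC-only region, and without it the list held 13 and 12. Its region at chr3:63359268-63359926 was among the strong ones, at 194 and 131. Mgam, a starch-digesting enzyme gene, held 3 and 2, and the sugar, peptide and amino acid transporter genes Slc2a2, Slc2a5, Slc15a1 and Slc6a19 held 1 each. Genes for xenobiotics and organic anions held 26 and 14 regions in 10 hosts of 25, and 15 of the 26 lay in Slco3a1 alone. Without Slco3a1 the counts were 11 SISC-only and 13 LISC-only, the opposite order. Abcc2, which encodes an exporter of organic anion conjugates, held 3. Bile acid genes held 2 SISC-only regions and 1 LISC-only region.

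Other lists held more LISC-only than SISC-only regions, which is also the order over all protein-coding genes (6.26 and 4.69 per Mb). Large-intestinal epithelial markers held 5 SISC-only and 32 LISC-only regions, with 3 SISC-only hosts of 21. EGF receptor and receptor tyrosine kinase genes held 9 and 33 (2.41 and 8.84 per Mb) in 6 hosts of 25, with 1 and 6 in the insulin-like growth factor receptor gene Igf1r and 1 and 2 in Egfr. Notch and BMP genes held 19 and 25 (8.01 and 10.5 per Mb) in 10 hosts of 30. Maml3, a Notch coactivator gene, held 5 and 2. Adhesion, junction and cytoskeleton genes held 66 and 73 in 22 hosts of 38. These are long genes, and per Mb the values were 7.28 and 8.05. The order in the Notch and BMP list and in the adhesion list is therefore not particular to them.

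Markers of other cells that a sort could carry were counted in the same way. Goblet and deep crypt secretory genes held 3 SISC-only and 6 LISC-only regions in 2 hosts of 18, and tuft cell genes held 3 and 5 in 3 hosts of 15. Enteroendocrine genes held 2 and 3 in 2 hosts of 20. Paneth cell genes held 0 of either in 11 genes, whose spans total only 0.0985 Mb. Immune genes held 2 and 1 in 2 hosts of 18, and gene ends of the list were called for 6, 5, 4 and 4 genes in SISC replicates 1 and 2 and LISC replicates 1 and 2.

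Stromal, endothelial, muscle and glial genes held more SISC-only than LISC-only regions, 9 and 3 (12.0 and 3.99 per Mb) in 6 hosts of 23. Decorin (Dcn), a matrix proteoglycan gene of fibroblasts, held 2, and Tek and Pecam1, of endothelium, held 2 each, Pecam1 beside 2 LISC-only regions. Col1a2 held 1, and its gene end was called in both SISC libraries and LISC replicate 1 and not in LISC replicate 2. Gene ends of this list were called for 12 and 15 of 23 genes in SISC replicates 1 and 2, and for 12 and 9 in LISC replicates 1 and 2. The part of such cells in the SISC-only regions was not tested.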

How the data were processed

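ATAC-seq peak lists of 4 libraries, 2 of small-intestinal (SISC) and 2 of large-intestinal (LISC) Lgr5-EGFP positive cells, were used as deposited. The submitters' processing notes name the mm10 build and list MACS2 2.2.7.1, bedtools, Picard, Bowtie2 2.3.4.1 and cutadapt 3.4, with no order. Their settings, the Tn5 shift and the calling threshold were not given in the sources used. The authors called peaks per library, and each peak carries the authors' fold enrichment (a ratio at the summit), −log10 p, −log10 q and a score, all of which scale with that library's depth. They were used only to describe, rank or filter peaks within a list.

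Peaks sharing 1 bp or more were merged, which was checked against bedtools 2.31.1, and coordinates are 1-based. Genes, strands, start windows and microRNAs came from RefSeq tables (GRCm38.p6) of 20661 protein-coding genes on chromosomes 1 to 19. Strand was matched by gene identifier for 16456 genes, and for the others no 5′ distance is given. Exons and introns were not analysed here. Of 374 list genes, 368 matched. The motif count, planned around summits, was run in RefSeq start windows instead, a change made after the files were seen.

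Host genes named were the 20 with most regions, the 8 densest per 100 kb with at least 3 and up to 4 per list; regions named were the 12 strongest, the 5 widest and the 3 on each side of the 1 kb limit. Some genes and regions under this rule are not reported here, and others, namely the list genes with fewer regions, the genes with regions of both kinds, those with a SISC-only gene end and Pid1, were chosen after their values were seen. The regions and lists were chosen with earlier results of these data known. No test was run, since the rule uses the calls and 2 libraries against 2 allow no exact two-sided p below 0.333. Shares carry exact (Clopper-Pearson) 95% intervals. The rule's code was tested on simulated data. Calculations ran in scipy 1.17.1, pandas 2.3.3 and numpy 2.4.6 under Python 3.11.15, and plots in matplotlib 3.10.9.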

Additional observations from a re-analysis of the deposited data

How the results depend on the processing

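Without single libraries, the count of SISC-only gene-body regions ranged from 5865 to 10140, the genes with 3 or more from 554 to 1155, the hosts with a gene end called in every library used from 79.5 to 80.1%, the share beyond 50 kb from 21.2 to 24.3%, the share of summits within 50 bp from 65.6 to 68.3% and the median percentile from 18.4 to 29.2. Leaving out a library loosens the rule by construction, and each count was higher. With the 41721 strongest peaks of each list these values were 2190, 95, 73.1%, 19.4%, 82.6% and 63.7. With lists of equal length the summit share was 66.8%. Requiring peaks to cover 50% of a region gave 75.7% for gene ends, 67.5% for summits and a percentile of 33.9. Windows of 250 bp each side of summits gave 77.3% for gene ends, and a gene-end distance of 2500 bp gave 25.9% beyond 50 kb. Under every other setting tried on these values, counts stayed within 1.5 times, shares within the 95% interval and the percentile within 1 SD of the values reported. Among these settings, requiring the whole region inside the gene could not change any value. A region with its midpoint in a gene and over 1 kb from every gene end lies wholly inside it. Without its host gene with most SISC-only regions, an alternative chosen after seeing the data, the excess of SISC-only over LISC-only regions was 6 in place of 13 for proximal factors, 12 in place of 17 for stem cell genes, 3 in place of 9 for lipid genes, 1 in place of 7 for brush border genes and -2 in place of 12 for xenobiotic genes. Over all protein-coding genes LISC-only regions outnumbered SISC-only ones, at 6.26 against 4.69 per Mb. No paired analysis was possible because the results come from no test, and the rule already asks for a call in SISC and none in LISC under both replicate numbers. Read depth is unknown, so weak and uncalled peaks cannot be told apart.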

Other observations

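The X chromosome lies outside the rule. By the same criteria it held 78 SISC-only and 120 LISC-only regions inside genes.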
